A study of Drosophila melanogaster with 4 samples.

Results

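The dMi-2 regions on chromosome arm 3L of Drosophila melanogaster were taken from the region lists of a ChIP-seq experiment on wild-type Oregon-R embryos aged 14 to 16 h, precipitated with the dMi-2 antibody Q4443. A region was a member when it lay on 3L with its midpoint at or below position 23543557 of release 5, which leaves out the last 1 Mb by the centromere of the 24543557-bp arm. By this rule 1896 of the 9388 regions in the combined list (20.2%) were members, as were 857 of 4213 in the replicate 1 list (20.3%) and 1067 of 5359 in the replicate 2 list (19.9%). There were 2 ChIP libraries, replicates 1 and 2, and 2 input libraries with the same numbers, all from embryos of the same strain, genotype and age. Whole embryos hold many cell types, which cannot be told apart here. The labels name no separate embryo collections for the replicates, so differences between them may be technical. The 2 ChIP libraries allow no test over samples, and no p-value is given.

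dMi-2 belongs to the CHD family of chromatin remodellers, which use ATP to slide and space nucleosomes. In Drosophila it is the motor subunit of NuRD, where it works beside a histone deacetylase, and of dMec, where it is paired with the zinc-finger protein MEP-1. It has been linked both to gene repression through DNA-binding factors that recruit it and to actively transcribed loci on polytene chromosomes.

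dMi-2 regions were spread along the whole arm up to about 600.7 kb short of the 23543557 limit, in a pattern of dense and empty stretches. The combined list covered 5.05 Mb of the 23.54 Mb (21.5%), the replicate 1 list 1.92 Mb (8.16%) and the replicate 2 list 2.76 Mb (11.7%). This came to 80.5 regions per Mb in the combined list, 36.4 in replicate 1 and 45.3 in replicate 2. On the other 4 long arms (2L, 2R, 3R and X), with the 1 Mb by the centromere left out in the same way, the combined list had 73.8 to 91.0 regions per Mb and covered 19.0% to 25.8%. The replicate 1 list had 31.3 to 44.4 per Mb on those arms and the replicate 2 list 40.1 to 54.4. The densities on 3L thus lay within the range of the other arms in each list.

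The arm began and ended with stretches free of regions. The first region of the combined list started at 55306 (1.1 kb wide), the first of replicate 2 at 108339 and the first of replicate 1 at 128041. At the centromere side, the last member of the combined list ended at 22942834, that of replicate 2 at 22942852 and that of replicate 1 at 22888631. In the combined list 632.9 kb without a region followed, up to the first region beyond the limit at 23575694, which lay 32.9 kb outside it. Beyond the limit there were 3 regions in the combined list, none of which overlapped a replicate region, and the replicate lists held 0 there. How well reads could be placed in this sequence is unknown.

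Coverage was uneven along the arm, and the replicates largely shared the order of bins by number of regions. Over 23 full bins of 1 Mb, the covered share in the combined list had a lowest value of 15.2% (13 to 14 Mb), a median of 20.5% and a highest value of 35.1% (the first Mb of the arm). In replicate 1 the range was 4.89% (22 to 23 Mb) to 14.2% (the first Mb), and in replicate 2 it was 7.42% (6 to 7 Mb) to 19.7% (the first Mb). Further peaks of the combined list stood at 8 to 9 Mb with 31.8%, at 16 to 17 Mb with 30.7%, at 3 to 4 Mb with 28.4% and at 11 to 12 Mb with 27.1%. At 8 to 9 Mb replicate 1 covered 11.0% and replicate 2 17.9%. At 16 to 17 Mb these values were 11.1% and 16.5%, and at 3 to 4 Mb they were 11.8% and 15.2%. Between these peaks lay broad troughs, such as 5 to 7 Mb with 16.9% and 16.2% in its 2 bins, and 13 to 15 Mb with 15.2% and 16.3%. The number of regions in a bin ran from 59 to 117 in the combined list, from 21 to 55 in replicate 1 and from 29 to 70 in replicate 2. Replicate 2 had more regions than replicate 1 in all 23 bins, by a ratio of 1.04 (6 to 7 Mb) to 1.86 (2 to 3 Mb). Across the 23 bins the region numbers of the replicates had a Spearman rho of 0.891, a description over bins of the same 2 libraries.

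**Figure D1:**
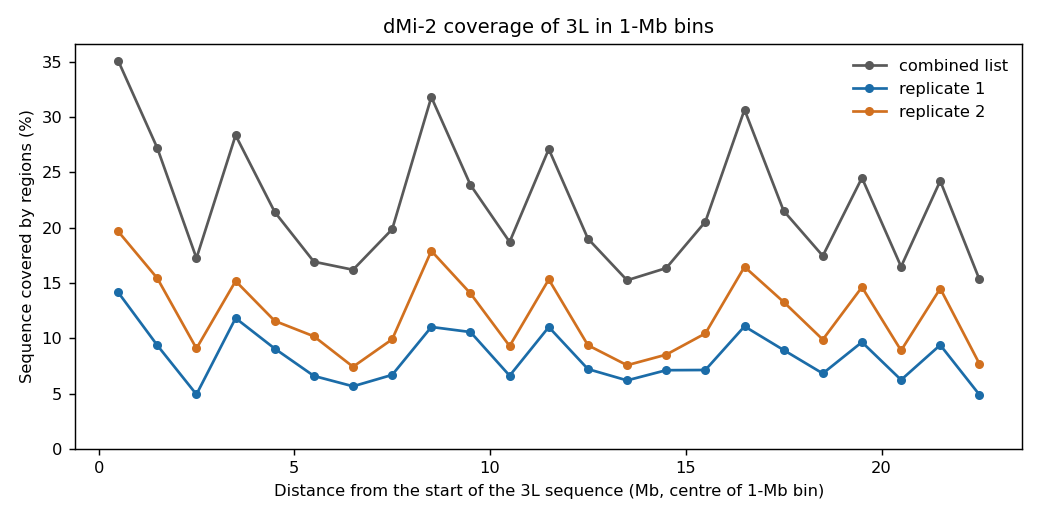
Share of sequence covered by dMi-2 regions (vertical axis, %) in 23 bins of 1 Mb along 3L (horizontal axis, distance from the start of the arm sequence in Mb) for the combined list, replicate 1 and replicate 2. Each of the 3 lines has its highest value in the first Mb (35.1%, 14.2% and 19.7%).

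At a finer scale, the arm held both densely covered and empty dMi-2 windows. Of 470 windows of 50 kb, 64 (13.6%) held no region in any of the 3 lists, and the median window was covered to 19.8% in the combined list. The longest run of empty windows, 11 from 22950001 to 23500000, was the region-free end at the centromere side. The next longest runs had 3 windows each. Windows covered to at least 50% numbered 28 in the combined list, 1 in replicate 1 and 3 in replicate 2. The 47 most covered windows held 25.02% of the covered sequence in the combined list, 32.7% in replicate 1 and 31.1% in replicate 2. Both replicates were empty in 93 windows, of which 29 held sequence of the combined list. Replicate 2 alone covered 38 windows and replicate 1 alone covered 17. Replicate 2 had the larger covered share in 297 windows and replicate 1 in 80. Across the 470 windows, empty ones included, the covered shares of the replicates had a Spearman rho of 0.874.

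**Figure D2:**
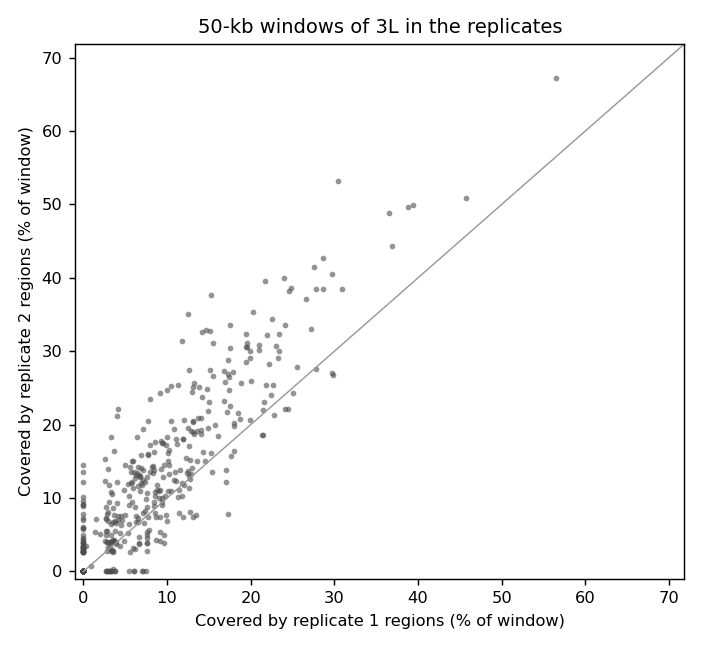
Share of each of 470 windows of 50 kb on 3L covered by regions of replicate 1 (horizontal axis, %) and replicate 2 (vertical axis, %), 1 point a window, with the line of equal coverage. Most points lie above the line (297 above and 80 below), and the window at the upper right is covered to 56.5% and 67.2%.

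The densest window of the arm was the same in all 3 lists. It ran from 600001 to 650000 and was covered to 82.1% in the combined list, 56.5% in replicate 1 and 67.2% in replicate 2. The second by the combined list, 21000001 to 21050000, was covered to 76.0%, with 36.5% in replicate 1 and 48.9% in replicate 2, which ranked 6 in both. The third, 750001 to 800000, was covered to 70.4% and held parts of 11 combined-list regions, and it ranked 12 in replicate 1 and 8 in replicate 2. It adjoined the tenth, 700001 to 750000, which was covered to 58.1% by parts of 12 regions. With the first, these made 3 of the 10 densest windows in the first Mb. The fourth and the fifth were 9400001 to 9450000 (66.9%, ranks 3 and 4 in replicates 1 and 2) and 3050001 to 3100000 (65.7%, ranks 2 and 3). The sixth, 10650001 to 10700000, reached 63.6% with parts of 4 regions, among them neighbours of 12.4 and 15.9 kb. The seventh was 16000001 to 16050000 (60.8%, ranks 4 and 5). The ninth was 15500001 to 15550000 (59.3%, ranks 21 and 13). The replicates differed most in rank in the eighth, 10800001 to 10850000, which was covered to 60.2% in the combined list and ranked 9 in replicate 1 and 56 in replicate 2.

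A few windows were covered much more in one replicate than in the other. Replicate 2 exceeded replicate 1 most in window 18750001 to 18800000, covered to 53.2% in replicate 2 and 30.4% in replicate 1. Next came 22850001 to 22900000, with 35.1% and 12.5%, and 8050001 to 8100000, with 37.7% and 15.2%. Replicate 1 exceeded replicate 2 most in window 14650001 to 14700000, where replicate 1 covered 17.2% with 4 regions and replicate 2 covered 7.78% with 1. Windows 3600001 to 3650000 and 9950001 to 10000000 were covered to 7.45% and 7.17% in replicate 1 and not at all in replicate 2. The 3 differences in favour of replicate 2, of up to 22.8 percentage points, were larger than the 3 in favour of replicate 1, of which the largest was -9.45 points (replicate 2 minus replicate 1).

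The longest stretches with no dMi-2 region in any list measured 155.1 to 195.9 kb, apart from the end of the arm. The longest ran from 9132071 to 9327997 (195.9 kb) and ended 72.0 kb before the fourth densest window, at 9400001. The window between them, 9350001 to 9400000, was itself covered to 55.5% in the combined list. That stretch was followed in length by 13661505 to 13853697 (192.2 kb), 14798967 to 14960307 (161.3 kb), 11827501 to 11985077 (157.6 kb) and 12844335 to 12999441 (155.1 kb). All 5 lay between 9.13 and 14.96 Mb, but the next in length lay elsewhere, at 18455367 to 18609843 (154.5 kb), 17051545 to 17204038 (152.5 kb) and 4977717 to 5120389 (142.7 kb). Stretches of at least 100 kb between neighbouring regions numbered 19 and made up 2.69 Mb (11.4%), and those of at least 50 kb numbered 57 and made up 5.27 Mb (22.4%). Whether reads could be placed throughout these stretches is not known from the lists.

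Neighbouring regions were often close together. In the combined list the median distance from a region to the next was 3.89 kb (interval 3.52 to 4.11), with quartiles of 1.19 and 9.46 kb, and 1075 of 1895 distances (56.7%) were under 5 kb. In replicate 1 the median was 10.75 kb (interval 9.16 to 12.02) with 30.8% under 5 kb, and in replicate 2 it was 7.47 kb (interval 6.66 to 8.44) with 39.5% under 5 kb. These are 95% order-statistic intervals over distances and cover no variation between samples. On the other long arms the share under 5 kb was 55.6% to 62.3% in the combined list, 31.6% to 32.8% in replicate 1 and 36.8% to 44.3% in replicate 2. The value of 3L was thus below all 4 in replicate 1, and within their range in the other lists. Distances of 50 kb or more numbered 57 in the combined list, 121 in replicate 1 and 105 in replicate 2.

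**Figure D3:**
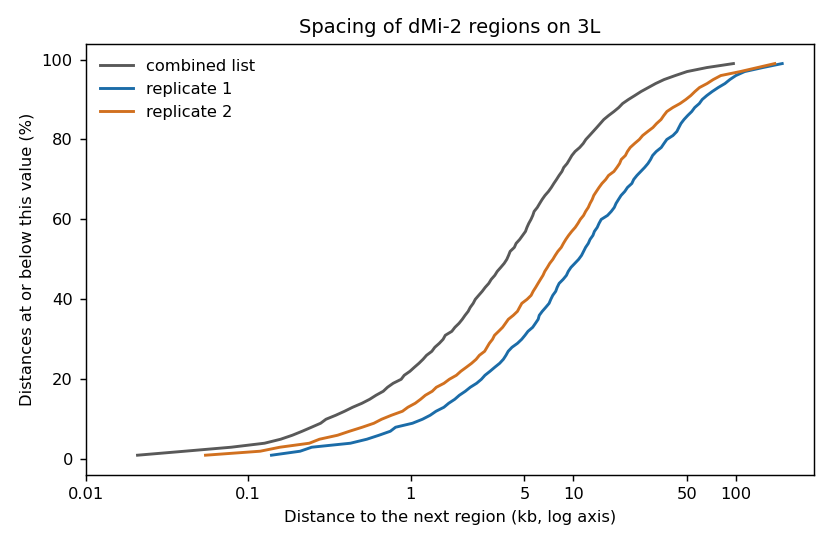
Distance from the end of a region to the start of the next on 3L (horizontal axis, kb, log scale) against the share of distances at or below it (vertical axis, %, percentiles 1 to 99) for the 3 lists. The combined list lies to the left of replicate 2 and replicate 2 to the left of replicate 1, with medians of 3.89, 7.47 and 10.75 kb.

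Close neighbours in the combined list were seldom spanned by a single replicate region. Of its 1895 distances, 120 were under 200 bp. A single region of replicate 1 spanned 5 of these junctions, a single region of replicate 2 spanned 11, and no junction was spanned in both. A junction can be spanned only where both of its neighbours overlap that replicate. How many of the 120 met this was not counted, so the low numbers follow in part from the definition. When regions less than 1000 bp apart were taken as a chain, the 1896 regions formed 1477 units, of which 308 held 2 or more regions. Those 308 chains took in 727 regions (38.3%), and 18 of them held 4 or more. The chains with most regions held 6, at 13477298 to 13496824 (19.5 kb) and at 16572036 to 16585012 (13.0 kb). In the first, 3 regions were in both replicates, 1 in replicate 1 alone and 2 in neither, and the span was covered to 55.5% in replicate 1 and 51.0% in replicate 2. In the other, 1 region was in both replicates, 2 in replicate 2 alone and 3 in neither, with 27.0% and 56.9% covered. The longest chain of 5 regions, 3090198 to 3109728 (19.5 kb), held the strongest region of both replicates.

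Most combined-list regions on 3L were not found in both replicates. A region was counted as found where it overlapped a replicate region by at least 1 bp. Of the 1896 regions, 597 (31.5%, interval 29.4 to 33.6) overlapped both replicates, where the whole combined list had 31.8%. A further 167 (8.81%, interval 7.57 to 10.2) overlapped replicate 1 alone, against 7.71% in the whole list, and 374 (19.7%, interval 18.0 to 21.6) replicate 2 alone, against 19.9%. The remaining 758 (40.0%, interval 37.8 to 42.2) overlapped neither, against 40.6%. Intervals of shares are 95% exact binomial (Clopper-Pearson) and cover counting error only. In each class the share of the whole list, which includes the 3L regions, lay inside the interval of 3L. On the other long arms the share in replicate 1 alone was 6.65% to 8.51%. The value of 3L was the highest of the 5 arms, and its interval reached into their range. In the other classes 3L lay within the range of those arms. Among 1-Mb bins the share in both replicates ran from 22.2% (22 to 23 Mb) to 37.0% (17 to 18 Mb), with a median of 32.1%.

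Seen from the replicate lists, most regions of either list were shared. On 3L 666 of 857 replicate 1 regions (77.7%, interval 74.8 to 80.5) overlapped a replicate 2 region, where the whole list had 80.0%. Of 1067 in replicate 2, 639 (59.9%, interval 56.9 to 62.8) met a replicate 1 region, where the whole list had 60.5%. The other long arms had 80.1% to 82.1% for replicate 1 and 57.2% to 62.6% for replicate 2. The replicate 1 value of 3L was the lowest of the 5 arms, and its interval reached into their range. In bases, 1.44 Mb lay in both replicates, which is 74.9% of the sequence covered by replicate 1 and 52.1% of that covered by replicate 2. The combined list took in 850 of the 857 regions in replicate 1 and 1060 of the 1067 in replicate 2, missing 7 of each. It added 1.88 Mb (37.3% of its coverage) that no replicate region covered.

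The median width of all members was 2011 bp (order-statistic interval 1957 to 2099) in the combined list, and regions in both replicates were wider. Their median width was 3845 bp (quartiles 2879 and 5241), against 1985 bp for those in replicate 1 alone, 2130 bp for those in replicate 2 alone and 1328 bp for those in neither. Of the combined-list regions narrower than 1500 bp, 0 of 552 were in both replicates (95% interval up to 0.666%) and 488 (88.4%) were in neither. Between 1500 and 2500 bp, 96 of 616 (15.6%) were in both. Between 2500 and 5000 bp it was 331 of 544 (60.8%), between 5000 and 10000 bp 155 of 169 (91.7%), and from 10000 bp up all 15. Overlap by 1 bp is met more easily by a wide region, and a replicate region has at least 1301 bp, so this ordering follows in part from the definition. Of the 758 regions in neither, 360 were narrower than that minimum. The lists of the replicates showed the same order: over the quartiles of width, low to high, the shared share was 54.4%, 68.2%, 89.7% and 98.6% in replicate 1, and 24.3%, 49.1%, 74.1% and 92.1% in replicate 2.

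**Figure D4:**
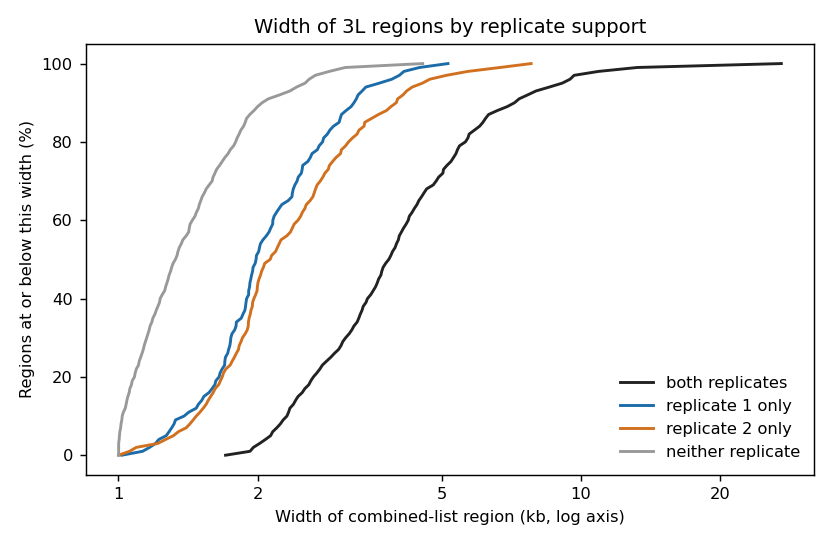
Width of combined-list regions on 3L (horizontal axis, kb, log scale) against the share of regions at or below it (vertical axis, %), separately for regions in both replicates, in replicate 1 only, in replicate 2 only and in neither. The curve for both replicates lies to the right, with a median of 3845 bp against 1328 bp for neither.

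The authors' score, whose scale the files do not name, went the same way. Apart from a correlation over overlapping pairs, it is used here to describe and rank regions within a list. In replicate 1 the shared share over the quartiles of score, low to high, was 68.8%, 73.4%, 79.0% and 89.7%, and in replicate 2 it was 40.8%, 47.6%, 62.8% and 88.4%. Score and width moved together, with a Spearman rho across regions of 0.518 in the combined list, 0.601 in replicate 1 and 0.712 in replicate 2. Across 689 overlapping pairs of replicate regions the scores had a Spearman rho of 0.455. This rho is across regions, which share their libraries and are not independent replicates.

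For regions missing from the other replicate, the distance to the nearest region of that replicate was measured. The 191 unshared replicate 1 regions lay a median of 4.28 kb from the nearest replicate 2 region, and 103 of them (53.9%) lay within 5 kb. The 428 unshared replicate 2 regions lay a median of 5.07 kb from the nearest replicate 1 region, and 212 (49.5%) lay within 5 kb. Regions are dense on the arm: 30.8% of distances to the next region in replicate 1 and 39.5% in replicate 2 were under 5 kb. Those distances run in a single direction within a list, while the unshared regions were measured to the nearest region of the other list. The 2 kinds of share are therefore not comparable. Whether unshared regions lay closer than other regions or positions was not tested. The 758 combined-list regions in neither replicate lay a median of 8.55 kb from the nearest region in both, with 55 of them at 50 kb or more. The highest-scoring unshared regions of replicate 1 were at 4841065 to 4842497 (1.4 kb, rank 27 of the 857 on the arm), 1353757 to 1355701 (1.9 kb, rank 32) and 1070577 to 1071942 (1.4 kb, rank 67). The middle one of these lay 0.95 kb from a replicate 2 region, and the others 14.4 and 19.8 kb. In replicate 2 they were at 16816933 to 16819076 (2.1 kb, rank 86 of 1067), 20488361 to 20492124 (3.8 kb, rank 96) and 5569622 to 5572608 (3.0 kb, rank 106), at 14.8, 10.3 and 3.88 kb from a replicate 1 region. All 6 overlapped a combined-list region.

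Where the replicates shared a region, replicate 2 usually drew it wider. Among 559 pairs in which each region overlapped only the other, replicate 2 was wider in 406 (72.6%) and replicate 1 in 153. The median width was 2589 bp in replicate 2 and 2069 bp in replicate 1, and the median of the differences within pairs, replicate 2 minus replicate 1, was 366 bp. The starts differed by a median of 315 bp, the ends by 322 bp and the centres by 271.5 bp (quartiles 97.25 and 570 bp). In 248 pairs (44.4%) the replicate 2 region contained that of replicate 1, and in 52 (9.30%) it was the other way round. No pair had identical ends on both sides. The sequence common to a pair made up a median of 71.3% of the sequence that the pair spanned.

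A shared combined-list region mostly overlapped a single region in each replicate. It was wider than its highest-scoring overlapping region in both replicates in 567 of 597 cases. Of the 597 regions in both replicates, 521 (87.3%) overlapped 1 region of replicate 1 and 510 (85.4%) overlapped 1 region of replicate 2. Replicate 1 covered a median of 66.3% of such a region (quartiles 51.0% and 78.6%) and replicate 2 a median of 80.6% (67.0% and 91.0%). Replicate 2 covered more of the region in 443 of the 597 (74.2%). At least 90% was covered in 32 of them by replicate 1 and in 168 by replicate 2.

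Most of the widest dMi-2 regions of the arm overlapped several regions of each replicate. The combined list held 15 regions of 10 kb or more, all in both replicates, and replicate 1 had 2 or more regions in 12 of them and replicate 2 in 14. The widest, 623492 to 650662 (27.2 kb), lay over 5 regions of replicate 1 and 2 of replicate 2. The second, 10662166 to 10678082 (15.9 kb), lay over 2 of each, which covered 64.7% and 62.8%. Only 79 bp before it ended another region of 12.4 kb, at 10649696 to 10662086. The third, 4401418 to 4417246 (15.8 kb), lay over 2 and 3 regions covering 77.2% and 70.1%. It held the widest replicate 1 region of the arm (10.6 kb). The fourth, 10841168 to 10856384 (15.2 kb), was covered to 59.6% in replicate 1 and to 96.4% in replicate 2. The fifth, 8440396 to 8455244 (14.8 kb), was covered to 74.6% and 90.3%. By score these 15 ranked between 26 and 317 among the 1896 of the arm, so the widest regions were not the very highest-scoring ones. Their scores of 0.539 to 0.764 (median 0.688) all lay above the upper quartile of the combined list on 3L, 0.494.

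The strongest regions found in both replicates lay apart from each other along the arm, with a few close pairs. They are the 15 highest combined-list scores among the 597 regions in both replicates, and they measured 2.4 to 9.7 kb (median 5.1 kb). The first was at 3058320 to 3062314 (4.0 kb, score 1.06), ranked 11 among the 857 replicate 1 regions of the arm and 2 among the 1067 of replicate 2. The second was at 14664420 to 14669872 (5.5 kb, score 0.998, ranks 2 and 3). The third, 3090198 to 3099612 (9.4 kb, score 0.988), held the highest-scoring region of the arm in both replicates, at 3094654 to 3098687 in replicate 1 and 3093735 to 3099353 in replicate 2. It lay 27.9 kb from the first, and both fell in the fifth densest window. In the replicate lists of the whole genome these highest regions of 3L ranked 6 in replicate 1 and 14 in replicate 2.

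The next 6 scored between 0.884 and 0.919. At 1487210 to 1490522 (3.3 kb) the ranks were 4 in replicate 1 and 17 in replicate 2, and at 10727640 to 10736688 (9.0 kb) they were 21 and 4. The region at 11283242 to 11292952 (9.7 kb) ranked 7 in both, and the one at 8048200 to 8057874 (9.7 kb) ranked 3 and 5. At 16399902 to 16407530 (7.6 kb) the ranks were 14 and 15 and the replicates covered 89.7% and 98.3%. At 22732882 to 22737674 (4.8 kb), the one of the 15 nearest to the centromere, replicate 1 covered 54.4% and replicate 2 98.6%, with ranks 19 and 9.

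The last 6 scored between 0.787 and 0.842. They were at 19898124 to 19905318 (ranks 16 and 13), 1400514 to 1402912 (15 and 35), 8016456 to 8019330 (26 and 37), 13424428 to 13428760 (12 and 58), 18986440 to 18991562 (41 and 10) and 16652224 to 16657110 (37 and 6). The narrowest of the 15, the one at 1400514 (2.4 kb), was covered to 94.6% in replicate 1 and 95.9% in replicate 2. It lay 84.3 kb from the region at 1487210, and that at 8016456 lay 28.9 kb from the region at 8048200. Each of the 15 was ranked in the first 50 of the arm in replicate 1, and 14 were in replicate 2, where the exception ranked 58. The 15 were picked by a high combined-list score and by overlap with both replicate lists. Their high ranks in those lists are therefore no independent support.

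**Figure D5:**
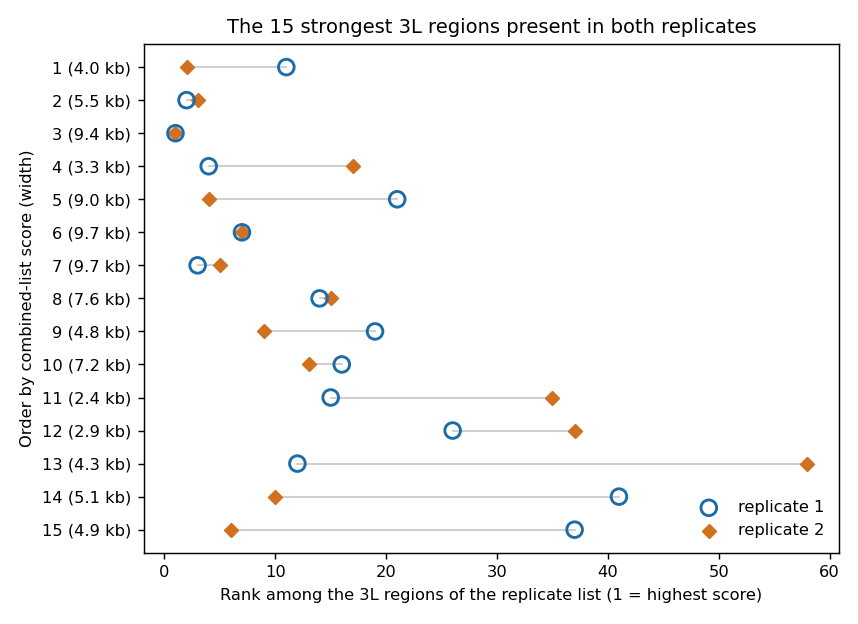
Rank of the 15 strongest 3L regions present in both replicates (vertical axis, in the order of the combined-list score, with the width in kb) among the 3L regions of replicate 1 (open circles) and replicate 2 (diamonds) on the horizontal axis, where 1 is the highest score. The third region ranks 1 and the sixth ranks 7 in both lists, and the widest spread is 12 against 58 for the 13th.

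The highest-ranked regions of one replicate were nearly all present in the other, though often further down its list. Of the 50 highest-scoring 3L regions of replicate 1, 48 overlapped a replicate 2 region, and of the 50 of replicate 2 all 50 overlapped a replicate 1 region. Over all 3L regions the shared shares were 77.7% and 59.9%, and over the whole lists 80.0% and 60.5%. Higher-scoring regions tended to be wider, and the widest quartiles on 3L were shared to 98.6% and 92.1%. Yet 25 of the 50 highest-scoring regions in either list (50%) met a region that was also among the 50 highest of the other. The largest fall in rank among the first 15 of replicate 1 was at 9438567 to 9441941 (3.4 kb), which ranked 5 in replicate 1 while the highest-ranked replicate 2 region that it met ranked 842. Among the first 15 of replicate 2, the region at 18778214 to 18786251 (8.0 kb, rank 14) met a replicate 1 region of rank 116.

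Beyond these, 3 combined-list regions of 3L scored above the 15th strongest without support in either replicate. They were at 1429020 to 1430020 (1001 bp, score 2.72), 9070076 to 9071076 (1001 bp, score 2.57) and 9126448 to 9127556 (1109 bp, score 1.04). The first pair held the highest scores among the members and had the smallest width in the list. Outside the limit, the region at 23663326 to 23664326 had the same width and the same score as the first of them. All 3 were narrower than the smallest replicate region, a width that no region in the replicate lists had. The last of them lay 4.51 kb before the start of the longest empty stretch.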

How the data were processed

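ChIP and input libraries were made from crosslinked embryos, per the labels' protocols. The submitters' processing notes name Bowtie 0.12.7. The authors deposited 3 GFF3 lists of enriched regions, on FlyBase release 5 per the file headers. There is 1 list a ChIP replicate, and a combined one. For the region caller and its settings, and for how the combined list was made, nothing is given in the sources used here. Each deposited region carries a score on a scale that is not named in the authors' files. As the lists hold no read counts, depth is unknown, and the inputs enter only through the authors' region calls.

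Members and lists were chosen with earlier results of these data known. Regions were counted as shared from 1 bp of overlap, with counts checked against bedtools 2.31.1, and the overlap functions were tested on simulated data. Distances run from the end of a region to the start of the next. Windows of 50 kb and bins of 1 Mb start at position 1. A region was placed in a bin by its midpoint. Medians have 95% order-statistic intervals. The regions named are the 15 highest combined-list scores found in both replicates, the 5 widest regions, the 10 densest windows, the 5 longest empty stretches, the 3 chains with most regions, the 3 highest-scoring unshared regions of each replicate, the 3 windows that differ most between replicates each way, and the ends of the arm. The 3 empty stretches next in length, the region beside the second widest and those with a rank or a score singled out in the last paragraphs were named after their values were seen. Genes were not assigned, since the gene table is on Release 6 and the lists are on release 5. Python 3.11.15, numpy 2.4.6, pandas 2.3.3 and scipy 1.17.1 were used. Alternatives were other definitions of overlap, merging, score and width minimums, the whole arm, other windows and each replicate list by itself.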

Additional observations from a re-analysis of the deposited data

How the results depend on the processing

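Of 55 alternative values, 21 lay within the interval of the value as reported (for rho an approximate 95% interval of 0.394 to 0.513, for empty windows an exact binomial one) or, for region numbers, densities and covered length, within 1.5 times of it. With the whole arm in place of the stretch up to the limit, all values stayed. The share of combined-list regions in both replicates (31.5%) moved to 19.9% with a reciprocal overlap of 50%, to 10.7% with centres within 250 bp, to 36.5% with regions closer than 1000 bp merged, to 27.8% with regions at or above the median score of their list, and to 39.6% with regions of at least the smallest replicate width. The shared share of replicate 1 (77.7%) moved to 60.4%, 32.2% and 66.4%, and that of replicate 2 (59.9%) to 48.5%, 25.9% and 49.8%, with reciprocal overlap, centres and the median score. The median-score setting also took low-scoring regions out of the list matched against. Its lower shares thus do not show that high-scoring regions are shared less. At or above the median score, 810 regions remained (34.4 per Mb, 2.96 Mb covered), with a median width of 3206 bp and a median distance of 10.52 kb. Merging gave 2451 bp and 5.63 kb, and the width minimum 2443 bp and 5.02 kb. With the list of a single replicate in place of the combined one, region numbers ranged from 857 to 1067, densities from 36.4 to 45.3 per Mb, covered length from 1.92 to 2.76 Mb, median widths from 1943 to 2083 bp and median distances from 7.47 to 10.75 kb. Empty windows (13.6%) came to 23.4% and 27.9% in the replicate lists, and to 5.53% with windows of 100 kb. The rho of replicate scores (0.455) was 0.541 over 276 pairs with centres within 250 bp, and Pearson's r of the scores was 0.534. No paired analysis was possible because the inputs have no list of their own here and no result comes from a test between groups. Read depth is unknown, and its part in which regions a list holds was not tested.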

Other observations

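Some scores recurred exactly among the dMi-2 regions on 3L, and 1 value did so far more often than the others. In the combined list 116 values were held by 2 or more regions, 287 of the 1896 in all. The value 0.403 was held by 38 regions, while no other value was held by more than 4 regions, and the same value was the commonest of the whole list, with 193 of 9388. These 38 regions were 1001 to 3775 bp wide (median 1623 bp), and 22 of them were in neither replicate, 10 in replicate 2 alone, 5 in replicate 1 alone and 1 in both. In replicate 2 the commonest score was 0.577, held by 22 of the 1067 regions, and in replicate 1 it was 0.627, held by 6 of the 857. Of the combined-list regions 1185 scored above the commonest value and 673 below it. The highest scores among the members, at 1429020 and 9070076, stood 2.32 and 2.17 above it on the unnamed scale of the score. The strongest region in both replicates, at 3058320, stood 0.65 above it. Both of the highest-scoring members had the smallest width in the list, 1001 bp, and the read counts behind them are not known.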
